A study of Rattus norvegicus with 12 samples.

Results

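The genes described here encode proteins of the extracellular matrix and the proteases that cut it: the collagens, laminins, fibulins, fibronectin, the lectican proteoglycans, the tenascins, the matrix metalloproteinases (MMPs), their tissue inhibitors (TIMPs) and the ADAMTS proteases. They were selected by gene symbol, and for each gene the probe set with the highest mean over the 12 arrays was used. This gave 94 genes with 136 probe sets, out of 14217 genes and 31042 probe sets. RNA came from the hypothalamic arcuate nucleus (ARC), the nucleus at the base of the hypothalamus that senses nutrients and hormones, cut out of stained brain sections by laser. All animals were male Wistar rats aged 3 months that ate standard chow, 1 animal per array. The 6 control animals were offspring of control dams. The 6 recuperated animals were born to dams given an 8% protein diet and were suckled by control dams, with the groups formed on postnatal day 3. Recuperated litters were also made smaller than control litters, so that prenatal diet and litter size cannot be told apart, and whether any animals shared a litter is not given in the labels, although the study's methods count litters as n. The arrays carried amplified RNA of the whole captured nucleus, in which fewer cells of a type and less RNA per cell cannot be told apart.

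The brain holds little fibrous collagen outside its blood vessels and meninges. Between its cells lies a loose gel in which lecticans bind hyaluronan and tenascin-R links them into lattices, which condense around some neurons as perineuronal nets. Around vessels and at the brain surface lies the basement membrane, a sheet of type IV collagen and laminin. MMPs and ADAMTS proteases cut these proteins, and TIMPs bind and block the metalloproteinases. The median eminence, whose tanycytes and leaky capillaries border the ARC, is one place where such matrix is remodelled in adult life.

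Levels below are the deposited log2 expression values, and differences are log2 fold changes, recuperated minus control, after the median of each array was subtracted. Array medians averaged 6.25 ± 0.02 for control animals (log2, SD, n = 6) and 6.27 ± 0.03 for recuperated animals (SD, n = 6). A gene is called past the threshold when it differed at least 1.3-fold with an unadjusted limma P under 0.05. The exact permutation p printed beside a difference is from another test and did not decide the call. The study's methods set the same fold and P limits but used another test and asked for a pass in GCOS, RMA and GC-RMA values alike. Where a signal stood against the array median does not tell whether a transcript was detected, since probe sets bind their targets to different degrees. The array of recuperated animal 4 stood apart from the other 11. Its 14 ARC neuron markers lay on average 1.17 above the array median, against 2.86 to 3.16 on the other arrays, and 5 genes that mark the neighbouring ventromedial nucleus (VMN) averaged 2.55, against -0.66 to 0.89. Many values below are also given without it.

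Few matrix genes of the ARC were called different between control and recuperated animals. Of the 94 genes, 1 was past the threshold with a higher level in recuperated animals, the ADAMTS protease gene Adamts5, where 1.2% of all probe sets were. None was past it with a lower level, where 1.27% of all probe sets were. An unadjusted P under 0.05 at any size of change was found for 4 genes, Adamts5, Mmp10, Col6a5 and Lama3. That is 4 of 94, against 3.45% of all probe sets. With 1 probe set for each of the 14217 genes, 87 were past the threshold with a higher level and 172 with a lower one. Of the same genes, 414 had an unadjusted P under 0.05. After Benjamini-Hochberg adjustment over all probe sets, limma called 0 of the 94 (0% of all probe sets), and the adjusted p was 0.999 for every one of them. The groups did not overlap in 1 of the 94 genes, Mmp10, against 0.155% of all probe sets. These counts moved when single arrays were left out: between 0 genes (without recuperated animal 1) and 4 (without recuperated animal 6) were past the threshold with a higher level, and between 0 and 3 with a lower one. The 3 lower genes came without control animal 1 (Col4a5, Col6a5 and Lamc3) or without recuperated animal 1 (Col6a5, Fbln1 and Mmp10).

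The log2 fold change was positive in 43 and negative in 51 of the 94 genes, with a median of -0.025. Over all probe sets the median was -0.028, with 43.4% positive. Over all genes with 1 probe set each it was -0.04, with 39.7% positive. Without the subtraction of array medians 47 of the 94 were positive, and without recuperated animal 4 it was 48. The 95% confidence interval lay wholly within a 2-fold change for 86 of the 94 genes and within a 1.5-fold change for 46. The 8 genes whose interval reached beyond 2-fold were Col15a1, Col4a5, Col4a6, Lamb3, Lamc3, Timp1, Adamts8 and Col23a1. By level, 20 genes lay above the array median on all 12 arrays, and 47 on none. All 20 of the former had an interval within 2-fold, and 14 within 1.5-fold.

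**Figure D1:**
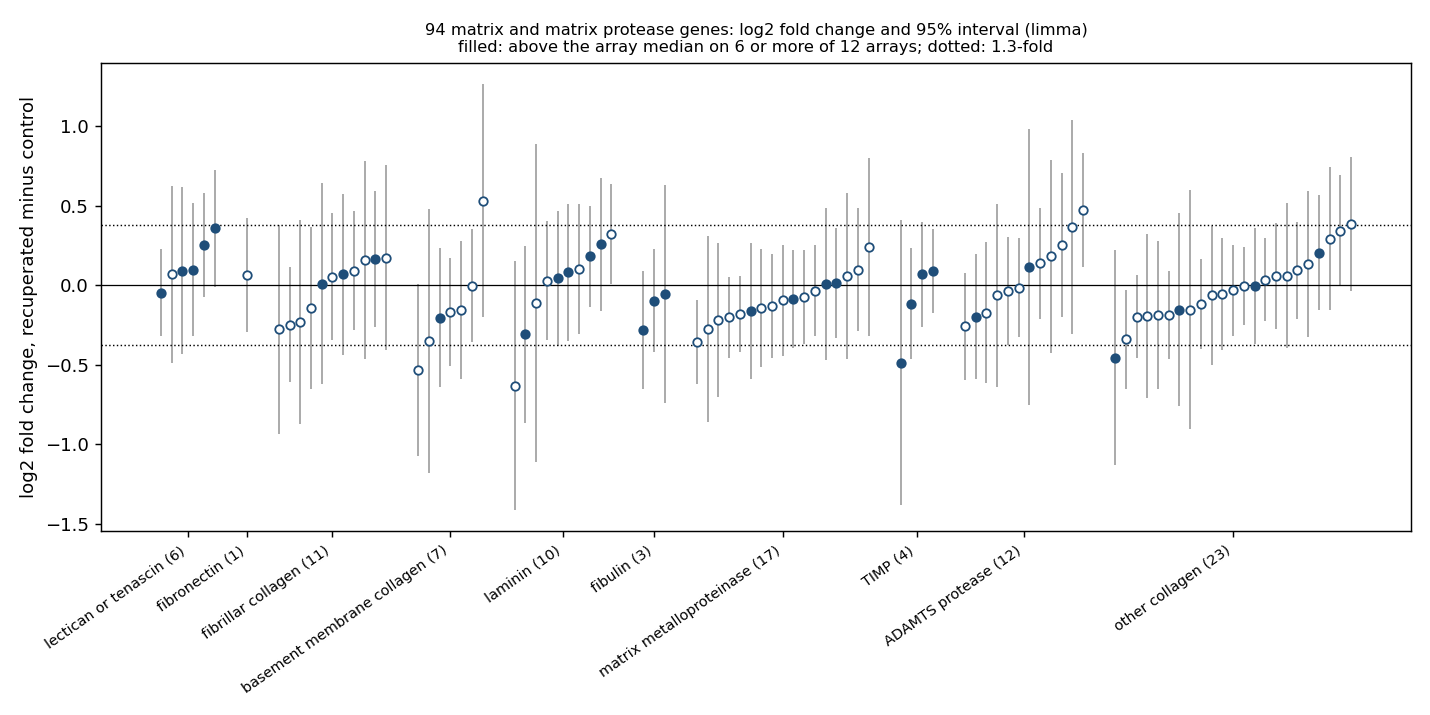
Log2 fold change (recuperated minus control, y axis) with its 95% confidence interval from limma for each of the 94 genes, grouped by family along the x axis and sorted within it. Filled points are the 31 genes above the array median on 6 or more arrays, and dotted lines mark 1.3-fold. Most intervals cross 0, and Lamc3 at -0.63 and Col4a5 at -0.53 are the lowest points.

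The lecticans and tenascins, the main proteins of the brain's own matrix and of perineuronal nets, exceeded the array median on 6 or more arrays in 5 of 6 genes. Of the 6, 5 had a positive and 1 a negative log2 fold change (median 0.09), and none was past the threshold. The positive count was 3 without control animal 6 and without recuperated animal 1, where the median was -0.01, and also with array quality weights (median -0.01). Brevican (Bcan), neurocan (Ncan) and tenascin-R (Tnr) lay above the array median on all 12 arrays. Aggrecan (Acan), the lectican that marks most perineuronal nets, ranged from 6.00 to 6.93 (median 6.48) in control and from 6.56 to 7.08 (median 6.85) in recuperated animals. The groups overlapped, with the lowest values in control animals 2 and 4. Control animals averaged 6.46 ± 0.38 (SD, n = 6) and recuperated animals 6.83 ± 0.21 (SD, n = 6). The log2 fold change of 0.36 ± 0.17 (SE) missed the threshold (exact permutation test, p = 0.0714). It was past the threshold when control animal 3 (0.42), control animal 5 (0.45) or recuperated animal 6 (0.41) was left out. A second, dimmer Acan probe set gave -0.05.

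Tnr, the glycoprotein that crosslinks lecticans, ranged from 8.49 to 8.84 (median 8.68) in control and from 8.49 to 9.24 (median 9.02) in recuperated animals. Recuperated animals 1, 2, 3 and 5 lay above every control animal, and animals 4 and 6 lay within the control range. The log2 fold change was 0.25 ± 0.15 (SE; exact permutation test, p = 0.119). Bcan differed by -0.05 ± 0.13 (SE; exact permutation test, p = 0.667), with a 95% interval of -0.32 to 0.23. Ncan differed by 0.10 ± 0.19 (SE; exact permutation test, p = 0.636), with a control range of 7.96 to 9.24 that took in all recuperated animals. Tenascin-C (Tnc), the tenascin of developing and injured tissue, differed by 0.09 ± 0.25 (SE; exact permutation test, p = 0.751). Versican (Vcan), the most widespread lectican, differed by 0.07 ± 0.26 (SE; exact permutation test, p = 0.838), and fibronectin (Fn1), an adhesive protein of plasma and vessel walls, by 0.07 ± 0.17 (SE; exact permutation test, p = 0.706). Fn1 was below the array median on all of them. None of Bcan, Ncan, Tnc, Vcan or Fn1 had a permutation p under 0.05, and each changed sign under at least 1 alternative.

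**Figure D2:**
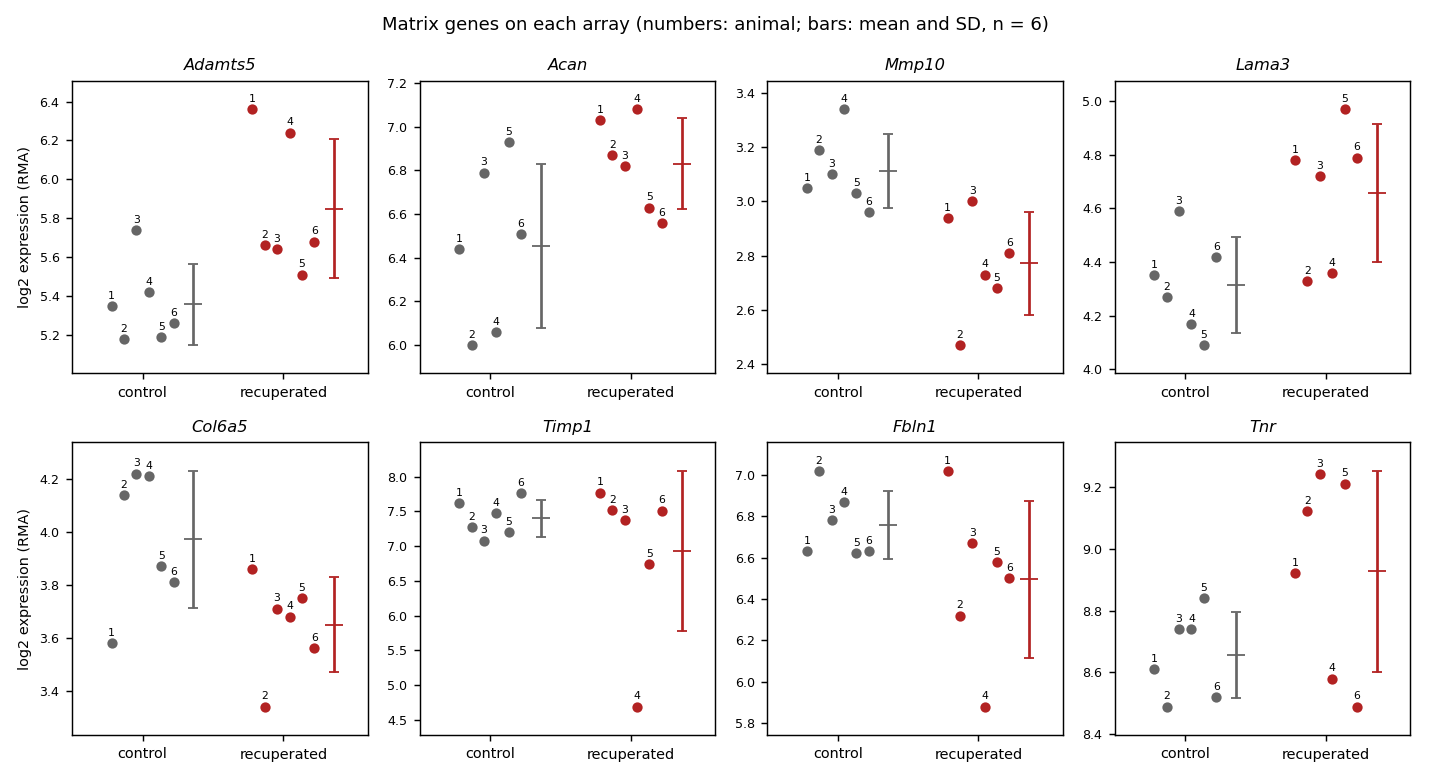
Log2 expression (RMA, y axis, a separate scale in each panel) of 8 matrix genes on each array, grey for control and red for recuperated animals, with the animal's number above its point and the mean and SD (n = 6) beside each group. Recuperated animal 4 has the lowest Timp1 value, 4.69, and the lowest Fbln1 value, 5.88, while Mmp10 lies between 2.47 and 3.34 in all 12 animals.

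The fibrillar collagens, which form the cable-like fibres of meninges and large vessels, had 7 positive and 4 negative log2 fold changes among 11 genes (median 0.05), and none was past the threshold. Leaving out single arrays turned this balance, to 4 positive without recuperated animal 6 (median -0.07) and to 5 without control animal 3 (median -0.05) or recuperated animal 3 (median -0.04). The chains of type I and type III collagen, made mainly by fibroblasts, lay above the array median on few arrays: 2 for Col1a1, 1 for Col1a2 and 2 for Col3a1. Col3a1 ranged from 5.32 to 7.06 (median 5.56) in control and from 4.96 to 6.38 (median 5.59) in recuperated animals. Control animal 4 was the highest of all 12 in each of the 3 genes, at 6.90 for Col1a1, 6.42 for Col1a2 and 7.06 for Col3a1. The fibroblast markers of this animal, 15 genes, averaged -0.53 relative to the array median, the highest of the control animals and below recuperated animal 1 at -0.21, within a range of -1.11 to -0.21 over all 12. Their part in the collagen values was not tested. The log2 fold changes were -0.28 ± 0.31 (SE) for Col1a1, 0.09 ± 0.18 (SE) for Col1a2 and -0.23 ± 0.30 (SE) for Col3a1 (exact permutation tests, p = 0.444, p = 0.641 and p = 0.541). Without control animal 4, Col1a1 was at -0.08, Col1a2 at 0.23 and Col3a1 at 0.02. Col27a1, a fibrillar collagen of cartilage, differed by -0.25 ± 0.17 (SE; exact permutation test, p = 0.177).

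Of the 7 basement membrane collagens, 6 had a negative log2 fold change and 1 a positive one (median -0.17), with none past the threshold. Without recuperated animal 4, and without subtraction of array medians, 5 were negative. The type IV chains encoded by Col4a1 and Col4a2 form the collagen network of every vessel wall. Col4a2 lay above the array median on all arrays, with 7.11 to 8.19 (median 7.89) in control and 7.03 to 8.06 (median 7.63) in recuperated animals. The ranges were nearly the same, and the difference was -0.21 ± 0.21 (SE; exact permutation test, p = 0.366), or -0.09 without recuperated animal 4. Col4a1 differed by -0.17 ± 0.16 (SE; exact permutation test, p = 0.31). Col4a5, a chain of the networks of kidney and smooth muscle, ranged from 4.59 to 6.08 (median 5.30) in control and from 4.02 to 5.49 (median 4.80) in recuperated animals. Its difference of -0.53 ± 0.25 (SE) missed the threshold with a limma P of 0.0524 (exact permutation test, p = 0.0866). It was past the threshold without control animal 1 (-0.68) or recuperated animal 2 (-0.67). Col4a6, which encodes the chain that pairs with that of Col4a5, differed in the other direction, by 0.53 ± 0.34 (SE; exact permutation test, p = 0.216), at levels of 2.87 to 5.58, and by 0.27 without recuperated animal 3, which held the highest value. Both genes lay below the array median on all arrays.

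Laminins are cross-shaped trimers of an alpha, a beta and a gamma chain that tie cells to the basement membrane. Of their 10 genes, 7 had a positive and 3 a negative log2 fold change (median 0.06), 7 also without the subtraction of array medians, 6 without recuperated animal 4 and 5 without control animal 4. Lama3, the alpha chain of epithelial laminins, ranged from 4.09 to 4.59 (median 4.31) in control and from 4.33 to 4.97 (median 4.75) in recuperated animals. Recuperated animals 1, 3, 5 and 6 lay above every control animal, and animals 2 and 4 lay among the controls. The difference was 0.32 ± 0.15 (SE), under 1.3-fold (exact permutation test, p = 0.0498, not adjusted over genes). The gene lay below the array median on all arrays. It was past the threshold without recuperated animal 2 (0.40) or 4 (0.39). Lamc3, a gamma chain of the brain surface and retina, had the most negative log2 fold change of the 94 genes, -0.63 ± 0.36 (SE; exact permutation test, p = 0.188). Its control values ran from 5.20 to 7.72 (median 5.78) and its recuperated values from 5.18 to 5.85 (median 5.52). Control animals 2 (6.87) and 6 (7.72) lay above the other 10. The difference was -0.31 without control animal 6, and it was past the threshold without control animal 1 (-0.82). The laminin chains Lamb1, Lamb2 and Lama5 lay above the array median on all arrays and were described after their values were seen. Lamb1 and Lamb2 differed by 0.18 ± 0.15 (SE) and 0.04 ± 0.20 (SE; exact permutation tests, p = 0.219 and p = 0.853), or by 0.10 and 0.15 without recuperated animal 4. Lama5 differed by 0.08 ± 0.20 (SE; exact permutation test, p = 0.719), and its other probe sets gave -0.10 and 0.01.

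Fibulins are calcium-binding glycoproteins that bridge basement membranes and elastic fibres. All 3 had a negative log2 fold change (median -0.10), and all 3 had their lowest value on the array of recuperated animal 4. Fbln1 ranged from 6.62 to 7.02 (median 6.71) in control and from 5.88 to 7.02 (median 6.54) in recuperated animals. The groups shared their highest value and overlapped, and the difference was -0.28 ± 0.17 (SE; exact permutation test, p = 0.143). It was -0.16 without recuperated animal 4, and past the threshold without recuperated animal 1 (-0.39). Fbln2 differed by -0.10 ± 0.15 (SE; exact permutation test, p = 0.545). On the array of recuperated animal 4 it read 7.35, against 7.57 to 8.19 on the other arrays, and without that animal the difference was -0.001. Fbln5, named after its values were seen, differed by -0.06 ± 0.32 (SE; exact permutation test, p = 0.894) and by 0.22 without recuperated animal 4.

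MMPs are zinc proteases that are made as inactive proenzymes, and several are hardly transcribed until a cell is stimulated. Of the 17 MMP genes, 5 had a positive and 12 a negative log2 fold change (median -0.10), where 39.7% of all genes with 1 probe set each were positive. The split was the same without the subtraction of array medians and with quantile normalization. It was 2 positive and 2 negative (median -0.04) among the 4 MMP genes above the array median on 6 or more arrays. Leaving out single arrays moved the positive count between 2 (without recuperated animal 3) and 7 (without control animal 6). None was past the threshold. Of the 17, 10 lay below the array median on all arrays and 3 above it on all arrays. These 3, named after their values were seen, were Mmp15, Mmp17 and Mmp24, which are anchored to the cell membrane. Mmp24, a protease of neurons, ranged from 9.92 to 10.29 (median 10.01) in control and from 9.11 to 10.50 (median 9.95) in recuperated animals, with the lowest value in recuperated animal 4. Its difference was -0.16 ± 0.20 (SE; exact permutation test, p = 0.502) and -0.002 without that animal. Mmp17 differed by -0.09 ± 0.14 (SE; exact permutation test, p = 0.543) and Mmp15 by 0.01 ± 0.16 (SE; exact permutation test, p = 0.942).

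The 6 genes Mmp13, Mmp12, Mmp3, Mmp10, Mmp8 and Mmp7 lie on rat chromosome 8, and all 6 lay below the array median on all 12 arrays. Apart from that of Mmp8, the promoters of these genes share a match to the AP-1 motif, the site of the Fos and Jun factors. The stretches below are the 100 bases before the gene start of the RefSeq promoter table (build GRCr8), read 5′ to 3′, with the AP-1 match (TGANTCA, both strands searched) in capitals, and they are shown because 5 of these 6 neighbours share the match.
Mmp13, chr8:12782729-12782828, plus strand: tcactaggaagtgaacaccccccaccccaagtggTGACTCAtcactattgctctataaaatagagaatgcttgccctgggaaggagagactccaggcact
Mmp12, chr8:12866552-12866651, plus strand: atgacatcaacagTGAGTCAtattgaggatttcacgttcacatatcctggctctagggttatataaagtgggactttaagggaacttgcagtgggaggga
Mmp3, chr8:12925181-12925280, plus strand: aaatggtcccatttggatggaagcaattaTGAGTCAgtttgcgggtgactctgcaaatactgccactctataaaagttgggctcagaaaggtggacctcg
Mmp10, chr8:12974607-12974706, plus strand: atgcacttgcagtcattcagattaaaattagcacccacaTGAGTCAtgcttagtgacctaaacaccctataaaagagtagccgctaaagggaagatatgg
Mmp7, chr8:13132943-13133042, plus strand: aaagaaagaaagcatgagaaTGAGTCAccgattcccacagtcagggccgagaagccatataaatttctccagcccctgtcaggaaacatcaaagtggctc
The match began 66 bases before the gene start in Mmp13, 87 in Mmp12, 71 in Mmp3, 61 in Mmp10 and 80 in Mmp7. For Mmp3 the RefSeq gene table gives another start, 12925267, inside the stretch printed above, so its 71 bases hold for the promoter table only. In the 250 bases before the gene start, this motif was present in 5 of the 11 MMP genes that have a promoter in the table (45.5%), in 7 of all 71 matrix genes that have one (9.86%) and in 6.34% of all 33469 promoters. Lama3 and Col6a1 held the other matches. The letters TATAAA, the core of the TATA box, were found in 6 of the 11 MMP genes (54.5%) and in 12.9% of all promoters. GGGCGG, a GC box, was found in 5 of the 11 MMP genes (45.5%), in 41 of the 71 matrix genes (57.7%) and in 30.5% of all promoters. A gene was counted when any of its promoters held the letters, whereas the shares of all promoters count each promoter singly. A match describes the letters and is no evidence of a bound factor.

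Of this cluster, Mmp10 (stromelysin-2, which cuts proteoglycans and fibronectin and activates other MMPs) was the 1 matrix gene whose groups did not overlap after the subtraction of array medians. It ranged from 2.96 to 3.34 (median 3.08) in control and from 2.47 to 3.00 (median 2.77) in recuperated animals. Before subtraction of array medians, recuperated animal 3 (3.00) lay above control animal 6 (2.96), and the groups separated once the medians were subtracted but not after quantile normalization. Control animals averaged 3.11 ± 0.14 (SD, n = 6) and recuperated animals 2.77 ± 0.19 (SD, n = 6). The difference was -0.36 ± 0.12 (SE), under 1.3-fold, with the smallest p that the test can give (exact permutation test, p = 0.00216, and p = 0.00433 on the values as deposited). It was past the threshold without control animal 5 or 6 (both -0.38), recuperated animal 1 (-0.40) or recuperated animal 3 (-0.41). The signal of Mmp10 was below the 10th percentile of the array on 7 of 12 arrays. Mmp8, the neutrophil collagenase, differed by -0.20 ± 0.12 (SE; exact permutation test, p = 0.0606). After quantile normalization its groups did not overlap, and the exact permutation test gave p = 0.00216. The signal of Mmp8 was below the 10th percentile of the array on all 12 arrays, which limits what either value can show. Mmp7 (matrilysin), named after its values were seen, differed by -0.18 ± 0.11 (SE; exact permutation test, p = 0.0411, and p = 0.0541 on the values as deposited). Its signal was below the 10th percentile on 11 of 12 arrays. The gelatinases Mmp2 and Mmp9 and the membrane protease Mmp14, which activates Mmp2, differed by 0.06 ± 0.24, -0.04 ± 0.13 and -0.13 ± 0.15 (SE; exact permutation tests, p = 0.838, p = 0.766 and p = 0.394).

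TIMPs block active metalloproteinases. Timp2, Timp3 and Timp4 exceeded the array median on all arrays and Timp1 on 11. Of the 4, 2 had a positive and 2 a negative log2 fold change (median -0.03), and none was past the threshold. Timp1, the inducible member, ranged from 7.08 to 7.76 (median 7.37) in control and from 4.69 to 7.77 (median 7.44) in recuperated animals. A single value, 4.69 in recuperated animal 4, lay outside the 6.74 to 7.77 of the other 11 animals. Control animals averaged 7.40 ± 0.26 (SD, n = 6) and recuperated animals 6.93 ± 1.15 (SD, n = 6), a difference of -0.49 ± 0.42 (SE; exact permutation test, p = 0.435), which was -0.04 without recuperated animal 4. Timp2, the inhibitor that also helps to activate Mmp2, differed by 0.09 ± 0.12 (SE; exact permutation test, p = 0.403), with a 95% interval of -0.18 to 0.35. Timp3, which is held in the matrix and also inhibits ADAMTS proteases, differed by 0.07 ± 0.15 (SE; exact permutation test, p = 0.662). Its other 3 probe sets gave -0.01, -0.16 and -0.35 ± 0.16 (SE), the last with p = 0.0498 (exact permutation test). Timp4, a TIMP of brain and heart, differed by -0.12 ± 0.16 (SE; exact permutation test, p = 0.481).

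ADAMTS proteases carry thrombospondin repeats, and Adamts4, Adamts5 and Adamts9 cut lecticans. Of the 12 genes, 6 had a positive and 6 a negative log2 fold change (median 0.05), with 5 to 8 positive when single arrays were left out. Adamts5 was the 1 matrix gene past the threshold. It ranged from 5.18 to 5.74 (median 5.31) in control and from 5.51 to 6.36 (median 5.67) in recuperated animals. Recuperated animals 1 (6.36) and 4 (6.24) lay above the rest, and control animal 3 (5.74) lay above 4 of the recuperated animals. Control animals averaged 5.36 ± 0.21 (SD, n = 6) and recuperated animals 5.85 ± 0.36 (SD, n = 6). The log2 fold change was 0.47 ± 0.17 (SE) with a 95% interval of 0.11 to 0.83 (exact permutation test, p = 0.0152, not adjusted over genes). The difference was 0.40 without recuperated animal 4 and 0.37, under 1.3-fold, without recuperated animal 1. The gene exceeded the array median on 1 array, its second and much dimmer probe set gave -0.19 ± 0.27 (SE), and the mean of both gave 0.14. Adamts9 differed by -0.26 ± 0.16 (SE; exact permutation test, p = 0.121), with 0.29 on its other probe set. Adamts4, above the array median on all 12 and named after its values were seen, differed by -0.20 ± 0.18 (SE; exact permutation test, p = 0.316), or by -0.33 without recuperated animal 4.

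The other 23 collagens, which decorate fibres, form beaded filaments or span membranes, had 9 positive and 14 negative log2 fold changes (median -0.03), or 11 and 12 without the subtraction of array medians. Without recuperated animal 4 the balance turned, to 14 positive and 9 negative (median 0.02). Of the 23, 18 lay below the array median on all arrays. Col6a5, a chain of the beaded type VI filaments, ranged from 3.58 to 4.22 (median 4.01) in control and from 3.34 to 3.86 (median 3.70) in recuperated animals. Control animals 1 and 6 lay within the recuperated range. The difference of -0.34 ± 0.15 (SE) was under 1.3-fold (exact permutation test, p = 0.0411, not adjusted over genes). It was past the threshold without control animal 1 (-0.42) or recuperated animal 1 (-0.39). Col12a1, a collagen that sits on the surface of type I fibres, differed by 0.34 ± 0.16 (SE; exact permutation test, p = 0.0563). Its other probe sets gave -0.33 and 0.58, and it was past the threshold without control animal 1 (0.39) or recuperated animal 2 (0.39), 5 (0.38) or 6 (0.42), and was 0.22 without recuperated animal 4. Col25a1, a membrane collagen of neurons named after its values were seen, lay above the array median on all arrays and differed by 0.21 ± 0.17 (SE; exact permutation test, p = 0.262), or by 0.10 without recuperated animal 4.

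The array of recuperated animal 4 held the lowest value of 19 of the 94 genes (20.2%), against 19.4% of all genes with 1 probe set each. Among the 31 matrix genes above the array median on 6 or more arrays it held the lowest value of 13 (41.9%) and the highest of 4. Of all probe sets of that level it held the lowest value of 17%. That base counts every probe set, and the share with 1 probe set per gene was not worked out at this level. At any level the share of all probe sets was 14.6%, lower than the 19.4% with 1 probe set per gene. The 13 were Col2a1, Col4a2, Lamb2, Fbln1, Fbln2, Fbln5, Mmp23, Mmp24, Timp1, Adamts10, Col16a1, Col23a1 and Col9a3, and the 4 were Acan, Lamb1, Adamts4 and Col25a1. Among the dimmer genes, Lamb3 read 7.25 there, against 3.82 to 5.73 on the other arrays. Col23a1 read 5.89 there against 6.84 to 8.08, and its difference between the groups moved from -0.46 to -0.19 without this animal. On the same array the 10 markers of tanycytes and ependyma averaged 0.15 above the array median, against 1.14 to 1.81 elsewhere. Of these 10, 8 had their lowest value there, while Col25a1, which is also on this list, had its highest. The 11 microglial markers averaged 0.27, against 0.70 to 1.18, and the 13 neuronal markers 4.96, against 4.21 to 4.60. The 9 astrocyte markers averaged 4.53, against 4.58 to 4.80, and the 10 markers of oligodendrocytes and precursors 3.33, against 2.79 to 3.19. The 9 choroid plexus and pituitary markers averaged -2.33, against -1.89 to -0.72. Fibroblast markers, 15 genes, averaged -1.11, the low end of their range and level with recuperated animal 6. Endothelial markers, 14 genes, averaged 0.44 there, within the 0.25 to 0.63 of all arrays. Mural cell markers, 13 genes, averaged -0.24, within -0.45 to 0.20. The part of these cells in the matrix values was not tested. Without this animal, Adamts5 and Lama3 were past the threshold with a higher level and Col15a1 (-0.70) with a lower one.

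**Figure D3:**
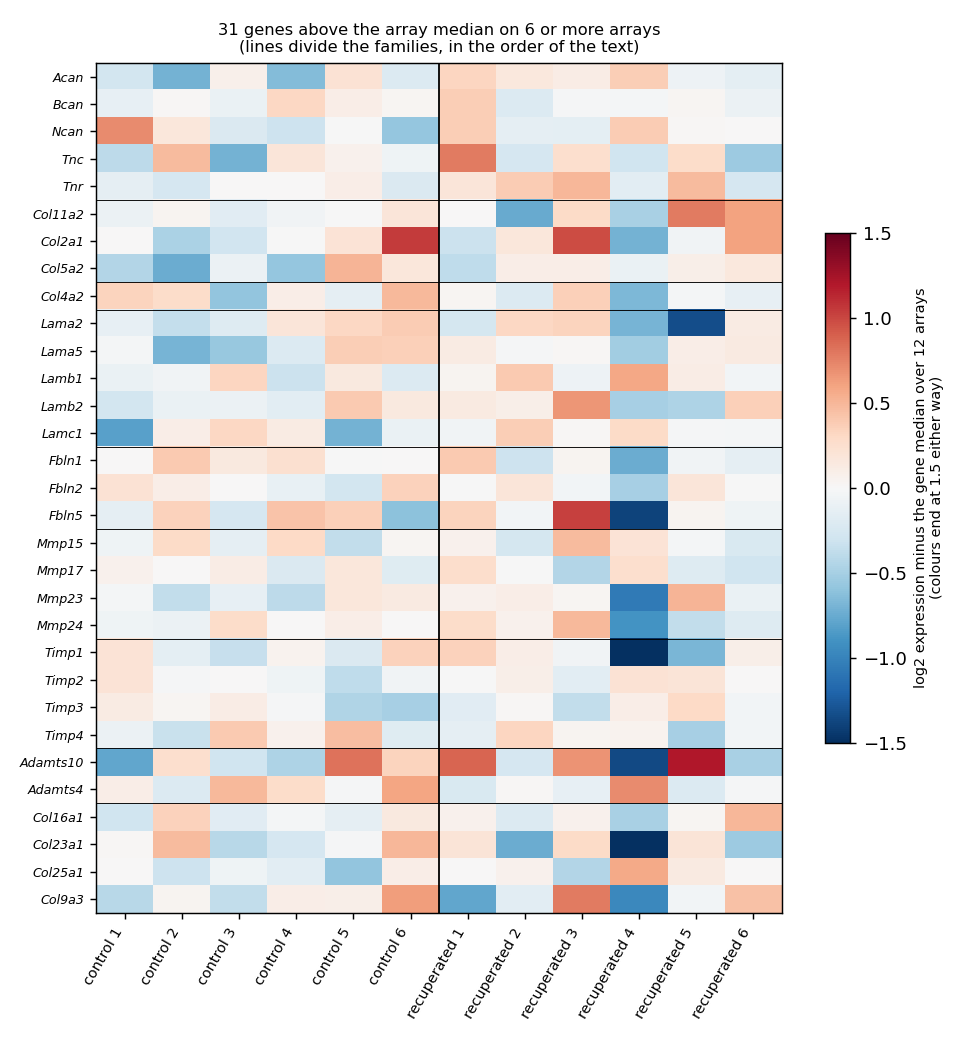
Log2 level of the 31 matrix genes above the array median on 6 or more arrays (rows, grouped by family) on each of the 12 arrays (columns), coloured by the difference from the gene's own median over the arrays. The column of recuperated animal 4 holds the lowest value of 13 of the 31 genes, with Timp1 at 4.69 the furthest from the others.

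The probe sets of a gene often disagreed. Of the 94 genes, 31 had more than 1 probe set, and in 17 of these the probe sets gave log2 fold changes of opposite sign, among them Adamts5, Acan, Col12a1, Adamts9 and Timp3. Col6a3, a type VI collagen chain named after its values were seen, gave 0.39 and -0.41 on its probe sets. With the mean of all probe sets of each gene in place of the brightest, 0 genes were past the threshold with a higher level and 1, Col4a5, with a lower level.

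**Figure D4:**
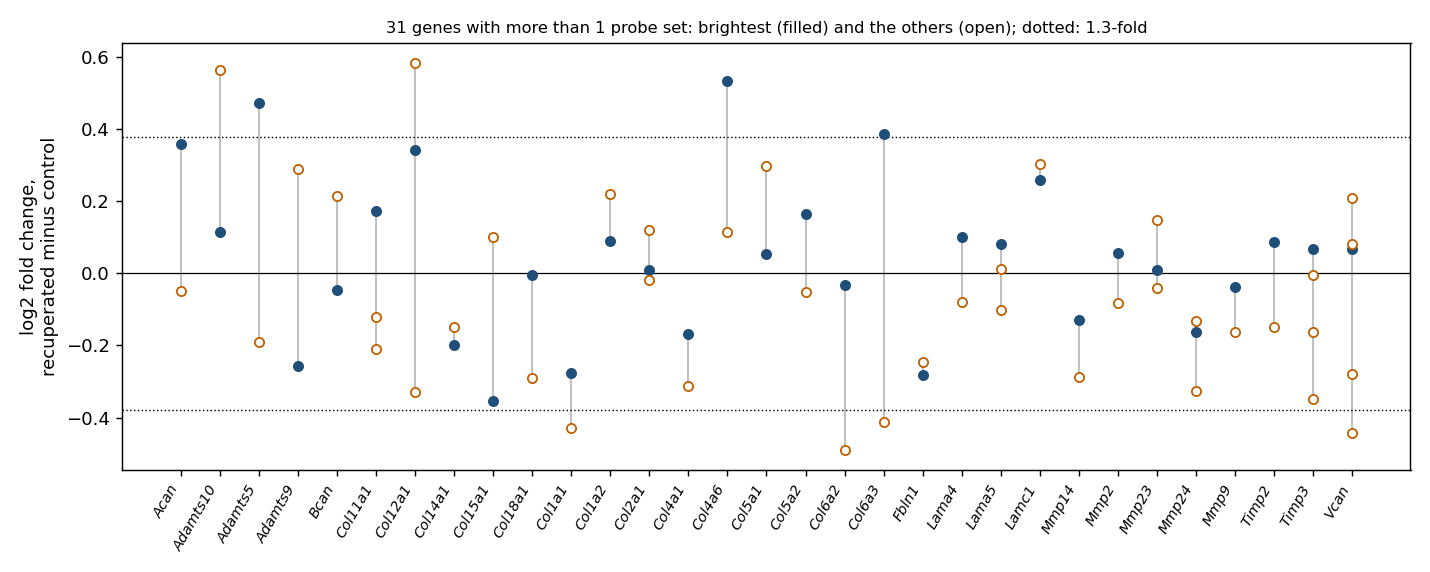
Log2 fold change (recuperated minus control, y axis) of every probe set of the 31 matrix genes that have more than 1 (x axis), the brightest filled and the others open, with dotted lines at 1.3-fold. For Adamts5 the brightest lies at 0.47 and the other at -0.19, and 17 of the 31 genes have points on both sides of 0.

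Genes that work with these proteins gave few calls as well, and so did the arrays as a whole. Of all probe sets, 1.2% were past the threshold with a higher level and 1.27% with a lower one. For their signs, 39.7% of all genes with 1 probe set each had a positive log2 fold change. Of 8 other basement membrane glycoproteins, 3 had a positive and 5 a negative log2 fold change, and Nid2, which encodes a nidogen that links laminin to type IV collagen, was past the threshold. It ranged from 3.39 to 4.87 (median 4.43) in control and from 4.48 to 5.43 (median 4.82) in recuperated animals, with control animal 1 the lowest. Its difference was 0.53 ± 0.23 (SE) with a limma P of 0.0396. Its groups overlapped (exact permutation test, p = 0.0519), and it lay below the array median on all arrays. The call was lost without control animal 1 (0.34, under 1.3-fold), 2 (0.52) or 4 (0.52) or recuperated animal 3 (0.50), 4 (0.52) or 5 (0.41). None of the other lists held a gene past the threshold, although Hyal3, Loxl1, Efemp2, Bsg and Ddr2 each passed it when some single arrays were left out. Of 12 link protein, hyaluronan and net receptor genes 4 were positive and 8 negative. Hyal3, a hyaluronidase gene, had the smallest limma P, 0.0618 (-0.42 ± 0.21, SE; exact permutation test, p = 0.0931). By the exact permutation test Hapln2 had a smaller p (0.0758). Of 15 genes for collagen synthesis and crosslinking 4 were positive and 11 negative. The crosslinking enzyme gene Loxl1 had the smallest limma P, 0.0786 (0.37 ± 0.20, SE; exact permutation test, p = 0.108). By the exact permutation test Lox had a smaller p (0.0779). The small leucine-rich proteoglycans, which coat collagen fibres, had 1 positive and 7 negative values among 8 genes (median -0.21). Omd, the gene of osteomodulin, differed by -0.30 ± 0.13 (SE; exact permutation test, p = 0.0303) with a median of 3.57 in control and 3.18 in recuperated animals.

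Of 28 matricellular and elastic fibre genes 9 were positive and 19 negative. The smallest limma P was that of Efemp2, the gene of a fibulin-like elastic fibre protein (-0.53 ± 0.25, SE; exact permutation test, p = 0.0887). Of 15 other matrix proteases and inhibitors 5 were positive and 10 negative. The smallest limma P was that of Bsg, which encodes basigin, an inducer of MMPs (-0.45 ± 0.27, SE; exact permutation test, p = 0.171). Of 16 integrins and collagen receptors 4 were positive and 12 negative. The smallest limma P was that of the collagen receptor gene Ddr2 (-0.33 ± 0.21, SE; exact permutation test, p = 0.177). Efemp2 and Bsg had their lowest values on the array of recuperated animal 4, and without it differed by -0.39 and -0.30. Among the cells that make vascular matrix, 0 of 14 endothelial and 0 of 15 fibroblast markers were past the threshold. Of all probe sets, 1.2% were past it with a higher and 1.27% with a lower level. The endothelial markers had 7 positive and 7 negative log2 fold changes. Cldn5 among them, named after its values were seen, differed by -0.33 ± 0.14 (SE), under 1.3-fold (exact permutation test, p = 0.013). Of 13 mural cell markers, 6 positive and 7 negative, 1 was past the threshold. That gene, Tagln, encodes a protein of smooth muscle actin filaments and ranged from 6.63 to 6.82 (median 6.74) in control and from 5.55 to 6.76 (median 5.90) in recuperated animals. It differed by -0.69 ± 0.21 (SE; exact permutation test, p = 0.0195), with recuperated animals 1 and 3 within the control range and the other 4 below it.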

How the data were processed

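ARC tissue was cut out by laser from 6 control and 6 recuperated rats, and its RNA was amplified and hybridised to Affymetrix rat arrays, each holding 1 animal. The values that the authors deposited are log2 expression for 31099 probe sets, made with RMA (background correction, quantile normalization and a median polish). For this step the submitters' processing notes give Affymetrix Expression Console (no version is given in the sources used here), whereas the methods name other software for RMA. GC-RMA and GCOS values were not analysed here. No build is named for the arrays, so only the promoters, from RefSeq, carry coordinates. Following the 50th centile scaling of the paper's methods, the median of each array was subtracted here.

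After 57 control probe sets were set aside, 31042 were compared between the groups in limma 3.58.1 (lmFit, eBayes, R 4.3.3) without covariates, P was adjusted by the Benjamini-Hochberg method, and this procedure was first tested on simulated data. For single genes, a two-sided exact permutation test ran over every arrangement of the arrays (smallest possible p = 0.00216), with no adjustment over genes. In the platform annotation 20826 probe sets carried 1 symbol, 436 several and 9780 none, and only those with 1 were named. All 94 genes were found in the RefSeq gene table. A promoter was found for 71 of them, and not for Adamts5. Python 3.11.15 with pandas 2.3.3, numpy 2.4.6 and matplotlib 3.10.9 made the promoter search and plots. Arrays give no read depth, and their number limits the precision.

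The genes, the wider lists and the marker lists were chosen with earlier results of these data known. Genes were named by rule: those past the threshold, the 2 with the smallest limma P of each family and a set of 19 well-known matrix genes. In each wider list the rule took those past the threshold or otherwise the 1 with the smallest limma P. Tagln and others said to be named after their values were seen lie outside the rule, as do genes listed only in a count. The alternatives were no median subtraction, quantile normalization, the methods' t-test, a filter that dropped dim probe sets, array weights, the animal number as a block, folds from linear means, the mean of a gene's probe sets, and leaving out each array.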

Additional observations from a re-analysis of the deposited data

Results flagged for a closer look

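Among 64 sets of 6 arrays (32 genes in each group), 6 held a highest or lowest value whose gap to the nearest other exceeded Dixon's 95% limit. Chance flags about 1 in 20 such sets. In recuperated animal 1, Vcan read 7.27 where the other recuperated animals read 5.64 to 6.15, Mmp14 read 6.71 against 6.02 to 6.26, and Mmp9 read 3.57 against 3.03 to 3.19. The fibroblast markers were highest on the same array, at -0.21 relative to the array median. In recuperated animal 4, Timp1 read 4.69 against 6.74 to 7.77 and Fbln2 read 7.35 against 7.80 to 8.03. In control animal 4, Col3a1 read 7.06 against 5.32 to 5.95.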

How the results depend on the processing

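Over the 32 named matrix genes and 620 combinations of gene and alternative, 566 kept the direction and the side of the 1.3-fold and P threshold, 2 lost it, 23 gained it and 29 changed sign. The count past the threshold with a higher level was 1, became 0 with the filter on dim probe sets and with the mean of all probe sets, 2 with array quality weights (Adamts5 and Col4a6), and ranged from 0 to 4 when single arrays were left out. The count with a lower level was 0, became 1 with array quality weights (Col6a5), with the mean of all probe sets (Col4a5) and with the animal number as a replicate block (Col4a5, -0.53), and ranged from 0 to 3 when single arrays were left out. The count with P under 0.05 was 4, became 0 with the filter, and ranged from 2 to 7 without single arrays. The filter keeps 31 of the 94 genes. The count past the adjusted limma test was 0 in every setting. Signs changed with the mean of all probe sets for Bcan (0.08), Vcan (-0.07), Mmp2 (-0.01), Timp2 (-0.03), Timp3 (-0.11) and Adamts9 (0.01), and with array quality weights for Ncan (-0.04), Vcan (-0.03), Fn1 (-0.05) and Timp3 (-0.02). Leaving out single arrays gave -0.12 to 0.01 for Bcan, 0.00 to 0.24 for Ncan, -0.06 to 0.21 for Tnc, -0.15 to 0.17 for Vcan, -0.02 to 0.14 for Fn1, -0.39 to 0.02 for Col3a1, -0.12 to 0.18 for Mmp2, -0.11 to 0.03 for Mmp9 and -0.01 to 0.13 for Timp3. The causes were not tested.

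Over all probe sets the threshold called 371 higher and 395 lower, 434 and 302 without median subtraction, 447 and 313 after quantile normalization, 118 and 150 of 15622 after the filter, and 243 and 263 with the methods' t-test. Same-numbered animals did not deviate together (correlations of -0.16 to 0.08), and the groups were compared unpaired. Such correlations cannot tell whether a number marks a shared batch. Of the 94 genes, 47 had a signal under the array median on every array, which limits what these arrays can show of them.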
